A study of Mus musculus with 32 samples.

Results

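The nuclear genes for subunits of the oxidative phosphorylation machinery were followed through 4 stages of cortical development in mouse embryos with and without an intact second copy of Chd8. The members were the genes whose symbols begin with Ndufa, Ndufb, Ndufc, Ndufs or Ndufv and a digit, and the genes Sdha to Sdhd. Also included were the genes whose symbols begin with Uqcr or Atp5. Cox4 to Cox8 counted when followed by at most a letter from a to c and a digit, which leaves out Cox4i1 and Cox4i2. This name rule found 82 of the 32285 genes listed: 36 of complex I, 4 of complex II, 8 of complex III, 15 of complex IV, 17 of the ATP synthase (complex V), and the related pair Ndufa4 and Ndufa4l2, which was kept apart. The tissue was dorsal telencephalon, from which the cerebral cortex forms, without its medial part, and its RNA was counted cell by cell. The embryos were C57BL/6J, either wild type (WT) or Chd8+/- (Chd8 het), at E12.5 and E14.5 and later at E16.0 and E17.5. Chd8 encodes a chromatin remodelling protein. Each genotype had 4 libraries per stage, from 2 males (M1 and M2) and 2 females (F1 and F2), each from the tissue of 1 embryo, which gave 32 libraries in 8 groups. Each WT embryo had a het partner matched for litter and sex. The labels do not say which part of Chd8 is altered, so a 3′ count of its RNA may not check the genotype.

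Oxidative phosphorylation takes place in the inner mitochondrial membrane. Complexes I and II pass electrons from NADH and from succinate to ubiquinone, complex III passes them on to cytochrome c, and complex IV passes them to oxygen. Complexes I, III and IV move protons across the membrane, and the ATP synthase uses the return of those protons to make ATP. Complex II is also an enzyme of the citric acid cycle and has only nuclear subunits, while the other complexes combine nuclear subunits with a few that the mitochondrial genome encodes. Neural progenitors are known to rely more on glycolysis than neurons do.

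Levels are given as CPM, the UMIs of a gene scaled to a common total of 1000000 UMIs for each library and set of cells. A UMI marks 1 captured RNA molecule whatever the length of its transcript, so levels of different genes can be set side by side. After filters, 138226 cells were retained, between 2399 and 6951 per library, and the median UMIs per cell ran from 3916.5 to 10531. The level of Chd8 ran from 19.4 to 82.5 CPM over the 32 libraries. At E17.5 the libraries labelled WT M1, het M1 and het F1 stood apart, with 82.5, 70.3 and 70.7 CPM of Chd8 against 40.4 to 61.4 in the other 5, and with summed levels of the stress gene list of 1006, 812 and 859 CPM against 286.1 to 608.3. Counts of members in the stage comparisons are also given without these 3 libraries. Cells were also taken as Sox2-detected (53912 cells), Eomes-detected (31735 cells) and Neurod6-detected (84868 cells), after genes that mark radial glia, intermediate progenitors and excitatory neurons, each with at least 1 UMI of that gene. The classes overlapped, since 36362 of the 138226 cells belonged to more than 1, and of the Eomes-detected cells 29130 did. The radial glia list summed to a mean of 3544 CPM in WT Sox2-detected cells and 1759 CPM in Neurod6-detected cells at E12.5, and to 8630 and 1207 CPM at E17.5. The excitatory neuron list summed to 361 and 1960 CPM at E12.5, and to 755 and 3079 CPM at E17.5, in the same order. The lists differed between the classes in the direction of their names, and no sum was near 0. The first list holds Sox2 and the second Neurod6, which set the classes, so part of each difference was fixed by the selection. These lists are not given here for the Eomes-detected cells.

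The members lie on 19 chromosomes, and many of their promoters are known targets of the factors NRF1, GABPA and YY1. Short core motifs of these factors were sought on both strands of the RefSeq promoters (GRCm38.p6, 250 bases before to 50 bases after the annotated start), which 68 members had. The NRF1 core GCGCATGCG was found in 8 of the 68 members (11.8%) against 527 of all 27025 genes with a promoter (1.95%). The YY1 core AAGATGGCG was found in 7 members (10.3%) against 443 genes (1.64%), and the GABPA core CCGGAAGT in 5 members (7.35%) against 1164 genes (4.31%). Some match was found in 19 members (27.9%) and in 2022 genes (7.48%). The 27025 genes were taken whether or not they were expressed here. A match is a stretch of letters and not a shown binding site. The stretches below show 1 match of each kind, and 3 for NRF1, in members that reappear in the results. They are written 5′ to 3′ on the gene's strand, before its RefSeq start, with the motif in capitals. They lie at chr2:36049339-36049392 (Ndufa8), chr15:102671048-102671134 (Atp5g2), chr5:115349067-115349165 (Cox6a1), chr4:116075071-116075126 (Uqcrh) and chr16:84835011-84835109 (Atp5j), all on the minus strand. For Ndufa8 and Uqcrh the capitals are the reverse complement of the core. In the GENCODE annotation the genes Ndufa8, Atp5g2 and Atp5j begin further upstream, so their stretches lie inside the gene there.
Ndufa8, NRF1: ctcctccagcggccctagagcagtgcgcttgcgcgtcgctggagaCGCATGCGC
Atp5g2, NRF1: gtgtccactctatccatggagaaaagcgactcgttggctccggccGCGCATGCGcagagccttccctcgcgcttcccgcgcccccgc
Cox6a1, NRF1: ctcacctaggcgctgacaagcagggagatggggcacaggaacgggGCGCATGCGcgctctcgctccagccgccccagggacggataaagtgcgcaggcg
Uqcrh, GABPA: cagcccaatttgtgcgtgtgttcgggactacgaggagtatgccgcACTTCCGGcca
Atp5j, YY1: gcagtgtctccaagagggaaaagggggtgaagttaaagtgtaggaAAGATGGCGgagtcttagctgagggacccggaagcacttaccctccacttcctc

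Together the members made up a few percent of all UMIs. Their summed level had a median of 32405 CPM and ran from 26722 to 41369 CPM over the 32 libraries. The member with the highest mean over the libraries was Atp5b, the catalytic beta subunit of the ATP synthase, at 1265 CPM. The highest members of the other complexes were Cox6c at 864 CPM, Uqcrh at 766 CPM, Ndufc2 at 564 CPM and Sdhb, the iron-sulfur subunit of complex II, at 327 CPM. Cox4i1 of complex IV, which the name rule left out, had WT means of 1369 CPM at E12.5 and 1233 CPM at E17.5. Members with tissue-specific isoforms were present in 1 form above all. Cox6b1 stood at 828 CPM against 6.29 CPM for Cox6b2, the form known from testis. Cox7a2 stood at 723 CPM against 2.81 CPM for Cox7a1, the form known from heart and skeletal muscle, and Ndufa4 at 835 CPM against 10.5 CPM for Ndufa4l2, a form known to be induced by low oxygen. Of the muscle form Cox6a2, 27 UMIs were counted in 17 of the 32 libraries, against 619 CPM for Cox6a1. Of Cox8b and Cox8c, 4 and 5 UMIs were counted, against 737 CPM for Cox8a. These 3 and Cox7b2, with 64 UMIs in 23 libraries, were too low to test, which left 78 members. The genes Atp5g1, Atp5g2 and Atp5g3, which encode the same mature c subunit of the proton-driven ring, stood at 427, 416 and 336 CPM. For 17 members, Atp5g1 and Atp5g2 among them, a near-identical copy was found elsewhere among annotated transcripts, so their counts may miss or hold reads of the copies. A further limit is that 30 members overlap a gene on the opposite strand, and whether counting used strand is not given in the sources used here.

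**Figure D1:**
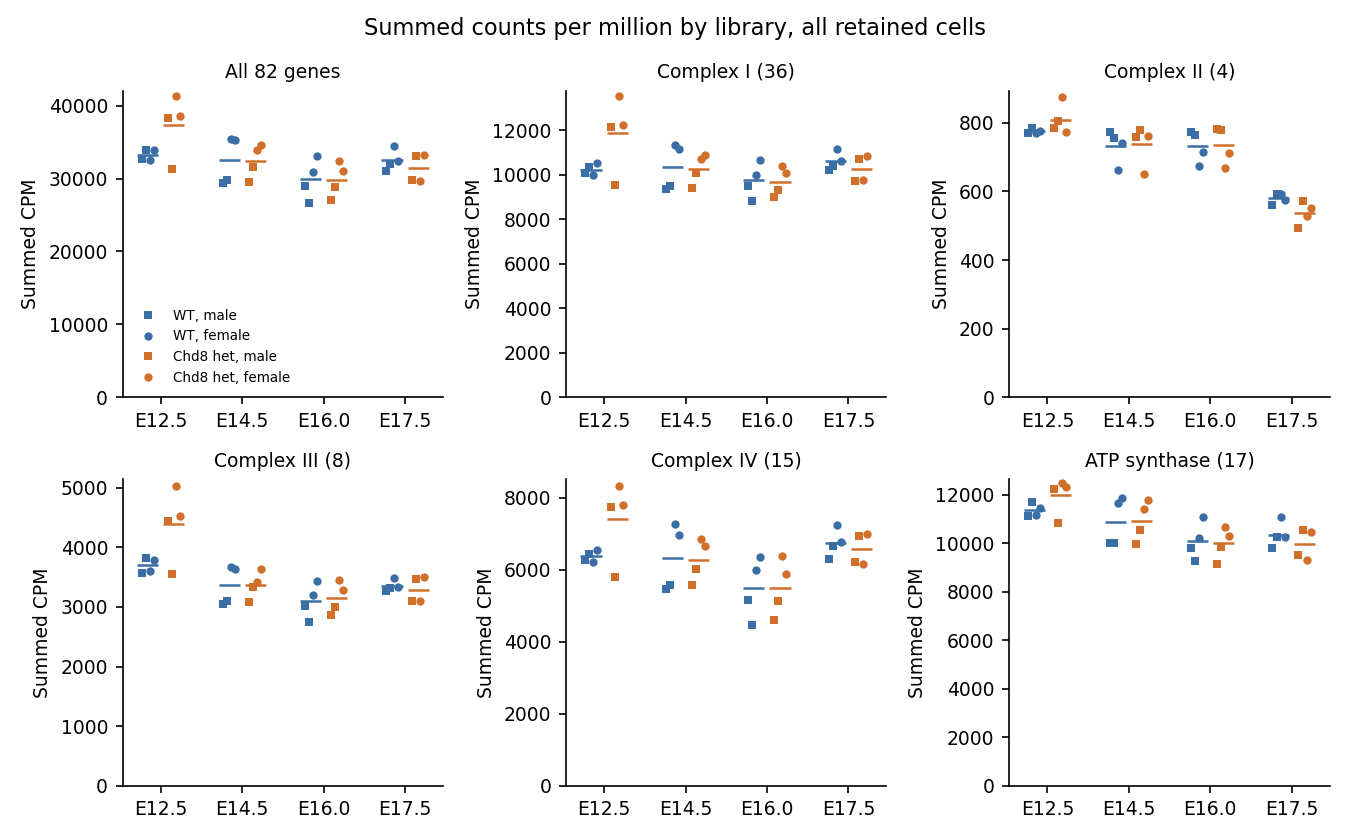
Summed CPM of all 82 members and of each complex in every library (all retained cells), by stage on the horizontal axis, with WT in blue, Chd8 het in orange, squares for males, circles for females and short lines for the group means. The complex II sum is lowest at E17.5, and 3 of the 4 het libraries at E12.5 lie above the WT libraries in the sum of all members.

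At E12.5 and at E17.5 the summed level of the members in WT tissue differed by less than the spread of the E17.5 libraries, while the sums of single complexes moved apart. The 82 members summed to 33255 ± 762 CPM at E12.5, 32504 ± 3330 at E14.5, 29928 ± 2716 at E16.0 and 32518 ± 1430 at E17.5 (mean ± SD, n = 4 libraries). Complex I summed to 10224 ± 258 CPM at E12.5 and 10599 ± 399 CPM at E17.5, and complex IV to 6371 ± 155 and 6741 ± 383 CPM. Complex III summed to 3697 ± 125 and 3349 ± 97.1 CPM, and the ATP synthase to 11360 ± 270 and 10353 ± 522 CPM. Complex II went from 775.2 ± 6.87 CPM at E12.5 through 734.0 ± 49.1 at E14.5 and 731.8 ± 46.7 at E16.0 to 580.1 ± 14.8 at E17.5, which left its first and last stage without overlap. The plot of summed levels by stage shows these values for each library.

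Gene by gene, more members fell than rose. In edgeR's quasi-likelihood test with Benjamini-Hochberg adjustment over all 15881 genes tested, 38 of the 78 members fell (48.7%) and 3 rose (3.85%) from E12.5 to E17.5 in all retained cells. Among all genes tested, 33.0% fell and 34.6% rose. The median log2 change was -0.28 over the members and 0.04 over all genes. With library totals in place of the scaling factors, 24 members fell and 15 rose, beside 4021 and 6741 of all genes, with a median of -0.06 over the members and 0.26 over all genes. That change of scale moved all genes by a similar step, and the members' median lay 0.31 below that of all genes under the factors and 0.32 below it under library totals. Of the calls, 24 lower and 3 higher were shared by both scalings, and 0 went opposite ways. Without the 3 libraries that stood apart, 32 members fell and 5 rose, beside 5268 and 5437 of 16268 genes. In tissue sums, less RNA of a gene per cell and fewer cells that carry it cannot be told apart.

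Most members of 4 groups of subunits, named below, fell. They were grouped after the values were seen, so the grouping carries no test. Of the 7 core subunits of complex I, the 4 subunits of complex II, the 3 large subunits of complex III and the 5 subunits of the ATP synthase head, 17 of 19 fell and 0 rose, with a median log2 change of -0.55. Of the other 59 tested members, 21 fell and 3 rose, with a median of -0.18. The 2 members of those groups that were not called were Ndufs3 at -0.17 and Atp5e at -0.13. These counts, and those by complex below, use the scaling factors. Of the 17, Ndufs7, Ndufs8, Ndufv2, Sdhc and Uqcrc2 were not called lower under library totals.

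All 4 genes of complex II fell, though Sdhc was not called lower under library totals. Sdha encodes the flavoprotein that oxidises succinate. It stood at 169, 183, 175 and 164 CPM in the E12.5 libraries (M1, M2, F1, F2) and at 122, 109, 121 and 102 CPM at E17.5. The groups did not overlap, and the log2 change was -0.82 (SE 0.10, adjusted p = 4.4e-08). Sdhd, a membrane anchor of the complex, went from 130, 134, 133 and 133 CPM to 74.7, 98.0, 86.6 and 93.5 CPM, a log2 change of -0.80 (SE 0.11, adjusted p = 4.66e-07). Sdhb fell by 0.55 and Sdhc, the other anchor, by 0.45 on the log2 scale.

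Of the 17 ATP synthase genes, 10 fell and 0 rose. Among those 10, Atp5f1, Atp5g1, Atp5g3 and Atp5j2 were not called lower under library totals. Atp5b, on chromosome 10, had the largest fall among members whose mean log2 CPM was 3 or more. It stood at 1543, 1607, 1589 and 1516 CPM at E12.5, at 1575, 1480, 1227 and 1441 CPM at E14.5, at 1335, 1330, 1210 and 1224 CPM at E16.0, and at 874, 884, 910 and 873 CPM at E17.5. All 4 libraries of the last stage lay below all 12 of the earlier stages. The log2 change from E12.5 to E17.5 was -1.03 (SE 0.09, adjusted p = 1.04e-10). Atp5a1, its alpha subunit partner, went from 769, 812, 788 and 754 CPM to 550, 562, 583 and 530 CPM, with a log2 change of -0.70 (SE 0.11, adjusted p = 1.43e-06). Atp5c1, the central stalk of the head, and Atp5d fell by 0.59 and 0.63. The 3 genes for the c subunit had nearly equal estimates, at -0.31 for Atp5g1, -0.30 for Atp5g2 and -0.28 for Atp5g3, of which Atp5g2 was not called. Atp5j, a stalk subunit whose YY1 stretch is shown above, had a change of -0.23 and was not called. The Atp5g2 libraries at E17.5 were split, at 293 and 357 CPM in M1 and F1 and at 498 and 521 CPM in M2 and F2.

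In complex III, 6 of 8 genes fell and 0 rose. Among those 6, Uqcr10, Uqcrc2 and Uqcrq were not called lower under library totals. Uqcrc1, a core protein of its matrix arm, stood at 297, 337, 309 and 298 CPM at E12.5 and at 184, 214, 218 and 208 CPM at E17.5, again with no overlap, and changed by -0.80 (SE 0.10, adjusted p = 5.7e-08). Uqcrb, which binds ubiquinone, and Uqcrfs1, the Rieske iron-sulfur protein, fell by 0.62 and 0.51. Uqcrh, a hinge protein of the complex, was the most abundant and had a log2 change of 0.01.

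In complex I, 16 of 36 genes fell and 1 rose. Among those 16, Ndufb7, Ndufb9, Ndufb11, Ndufs7, Ndufs8 and Ndufv2 were not called lower under library totals. The core subunit Ndufs1, on the path of electrons to ubiquinone, fell by 0.60 (SE 0.10, adjusted p = 8.32e-06). Ndufv1, which binds NADH, fell by 0.46. Of the 29 other complex I genes, 10 fell and 1 rose, with a median log2 change of -0.05. Ndufa12, one of these accessory subunits, went from 381, 403, 358 and 438 CPM to 226, 264, 298 and 263 CPM (log2 change -0.80, SE 0.16, adjusted p = 4.75e-05). The gene that rose was Ndufa8, an accessory subunit on the intermembrane space side. Its promoter stretch with the NRF1 core just before the RefSeq start is printed above. Its libraries stood at 171, 168, 168 and 168 CPM at E12.5 and at 245, 224, 274 and 238 CPM at E17.5, with no overlap (log2 change 0.32, SE 0.08, adjusted p = 0.00121). With depth as a term its change was 0.08 and not called.

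In complex IV, 2 of 11 tested genes fell and 1 rose, with a median log2 change of -0.16. Cox5a, which sits on the matrix side, fell by 0.46. The abundant isoforms did not pass the test, with log2 changes of 0.09 for Cox6a1, -0.16 for Cox6b1, 0.11 for Cox7a2 and -0.31 for Cox8a. Among the isoform sets of complex IV, the called members were the rare forms. Cox6b2 went from 12.8, 11.5, 11.9 and 12.6 CPM to 3.68, 6.16, 3.18 and 8.60 CPM (log2 change -1.40, SE 0.26), and Cox7a1 from 2.03, 2.05, 1.92 and 2.43 CPM to 3.02, 3.27, 3.93 and 4.47 CPM (log2 change 0.58, SE 0.17). The third member that rose was Ndufa4l2. It stood at 8.13, 9.51, 6.73 and 8.05 CPM at E12.5 and at 9.24, 19.6, 14.7 and 13.6 CPM at E17.5, where M1 lay just under the highest E12.5 library (log2 change 0.61, SE 0.26, adjusted p = 0.0399). The call was lost without WT M1, F1 or F2 of E12.5, or without WT M2 or F1 of E17.5. The summed pericyte list, whose 4 genes were all detected, moved the same way, from 27.3, 42.2, 19.0 and 26.9 CPM to 70.0, 82.5, 95.5 and 79.2 CPM, and its part in the result was not tested.

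**Figure D2:**
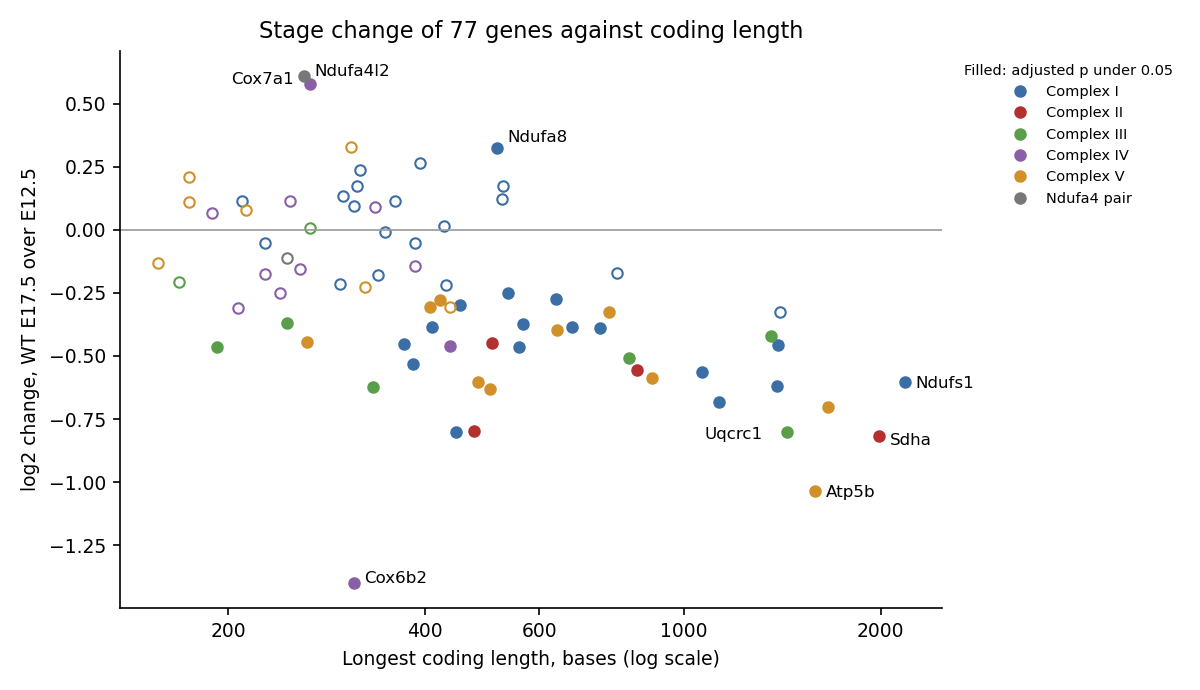
Log2 change from E12.5 to E17.5 in WT tissue (vertical axis) of the 77 tested members with a coding length, against that length in bases on a log scale. Colours mark the complexes, filled points passed the test, and the longer genes, such as Atp5b, Sdha and Uqcrc1, lie mostly below 0.

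The falls went with the length of the coding sequence, which the name rule did not use. Over 77 members, Spearman's rho between coding length and the stage change was -0.57, and over 14002 genes of all kinds it was 0.18. These are descriptions, since members are not independent samples. Of the 20 members of at least 600 coding bases, 18 fell and 0 rose, with a median log2 change of -0.53. Of the 57 shorter ones, 20 fell and 3 rose, with a median of -0.17. Among all genes, 4174 of 12144 of at least 600 bases fell and 4202 rose, with a median of 0.02. Of 1858 shorter genes 739 fell and 428 rose, with the same median of -0.17 as the short members. Role and length overlap among the members, and their parts were not tested. By other features, the 8 members with an NRF1 core had a median change of 0.05, with 1 higher and 1 lower, the 5 with a GABPA core a median of -0.21, with 1 lower, and the 7 with a YY1 core a median of -0.38, with 4 lower. The 47 tested members with a promoter and no match had a median of -0.28. The 17 members with a near-identical copy had a median of -0.31, with 9 lower, against -0.25 for the other 61. The 29 tested members overlapped on the opposite strand had a median of -0.33, with 16 lower, against -0.25 for the other 49.

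Depth moved with stage. The median UMIs per retained cell were 8580.5 to 10479.5 in the WT libraries of E12.5 and 4032.5 to 5410 in those of E17.5. With the log of this median as a term of the fit, chosen after the data were seen, 56 of the 78 members were lower and 0 higher, and their median log2 change was -0.66. In that fit 4771 of the 15881 genes tested were higher and 4368 lower, with a median of 0.06 over all genes. For the cell classes, sums of cells thinned to 2000 UMIs are given below.

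Within the 3 cell classes more members fell than rose as well. In Sox2-detected cells 28 of 78 members fell (35.9%) and 4 rose (5.13%), against 27.4% and 31.8% of all 13797 genes tested there. In Eomes-detected cells 26 fell (33.3%) and 1 rose (1.28%), against 24.5% and 25.8% of 13102 genes. In Neurod6-detected cells 29 fell (37.2%) and 1 rose (1.28%), against 28.0% and 31.8% of 14560 genes. The median log2 changes over the members were -0.16, -0.16 and -0.18, beside 0.05, 0.02 and 0.04 over all genes in each class. With library totals, 12 rose and 15 fell in Sox2-detected, 8 rose and 16 fell in Eomes-detected and 5 rose and 28 fell in Neurod6-detected cells. Among all genes 5407 rose and 2691 fell, 4129 and 2351, and 5069 and 3530 in the same order. Then the medians were 0.01, -0.04 and -0.10, beside 0.21, 0.14 and 0.13 over all genes. In Eomes-detected cells that held neither Sox2 nor Neurod6, 10 of 76 members fell and 2 rose, with a median of -0.02, and 734 of all 7596 genes tested fell and 723 rose. With depth as a term, 58, 59 and 55 members were lower and 1, 1 and 0 higher in the 3 classes, with medians of -0.61, -0.61 and -0.62. Of all genes in that fit 3337, 2528 and 2985 were lower and 3965, 2609 and 3477 higher. In cells thinned to 2000 UMIs, 24, 20 and 31 fell and 2, 2 and 0 rose, with medians of -0.18, -0.17 and -0.25, while 2683 of 10523, 1814 of 9736 and 3069 of 12320 genes fell and 2720, 2015 and 3490 rose. Without the 3 libraries that stood apart, 25, 21 and 29 fell and 5, 1 and 1 rose, beside 3850, 3214 and 4294 genes that fell and 4200, 3178 and 4215 that rose. The Eomes-detected median then was -0.12, beside -0.01 over all genes.

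Of the 33 members that fell in at least 1 class, 21 fell in all 3 classes and in all retained cells, beside 2256 of 4996 among all genes tested in the 4 sets. Among these 21 were Atp5b, Atp5a1, Atp5c1, Atp5d, Atp5h and Atp5o of the ATP synthase, the core subunits Ndufs1 and Ndufv1 of complex I, Uqcrc1, Uqcrb and Uqcrfs1 of complex III, Sdhb and Cox5a. They also held accessory subunits of complex I, such as Ndufa9, Ndufa10, Ndufa12 and Ndufb8. The classes share libraries and many cells, so this overlap is not a comparison of independent samples.

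Atp5b went from 1569, 1624, 1613 and 1532 CPM to 1101, 975, 1182 and 1000 CPM in Sox2-detected cells and from 1566, 1644, 1616 and 1531 CPM to 822, 886, 870 and 872 CPM in Neurod6-detected cells. The classes began at like levels, and at E17.5 the Neurod6-detected sums lay below all 4 Sox2-detected ones. The log2 changes were -0.74 in Sox2-detected, -0.74 in Eomes-detected and -0.97 in Neurod6-detected cells. Uqcrc1 changed by -0.64, -0.54 and -0.66, and Atp5a1 by -0.55, -0.40 and -0.54, in the same order, all past the test. In the same 3 classes, Sdha changed by -0.50, -0.19 and -0.52 and Sdhd by -0.45, -0.22 and -0.48, with the Eomes-detected value not called for either.

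Ndufc2, a small membrane subunit of complex I and its most abundant member, was the member called higher in all 3 classes, though in Neurod6-detected cells the call was fragile. In Sox2-detected cells it stood at 527, 509, 500 and 477 CPM at E12.5, at 663, 688, 705 and 683 CPM at E14.5, at 768, 715, 756 and 744 CPM at E16.0 and at 958, 779, 886 and 897 CPM at E17.5. Each stage lay above the one before it with no overlap. The log2 change was 0.64 (SE 0.08, adjusted p = 1.09e-07) there and 0.70 (SE 0.08, adjusted p = 4.87e-09) in Eomes-detected cells, where it went from 442, 433, 438 and 425 CPM to 822, 713, 790 and 774 CPM. In Neurod6-detected cells it went from 463, 460, 457 and 439 CPM to 547, 541, 554 and 582 CPM, a change of 0.20 (SE 0.09, adjusted p = 0.043). The groups did not overlap, but the call was lost without any of the 4 WT libraries of E12.5 and without 3 of those of E17.5 (M2, F1 and F2). With depth as a term the value in Neurod6-detected cells was -0.02, while 0.30 and 0.48 in Sox2- and Eomes-detected cells still passed. In Neurod6-detected cells with neither Sox2 nor Eomes it was 0.01. In all retained cells the change was 0.12 and not called.

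Ndufv3, an accessory subunit of the part of complex I that oxidises NADH, was highest at E12.5 in Neurod6-detected cells. Its libraries stood there at 444, 414, 432 and 536 CPM at E12.5, at 233, 235, 329 and 323 CPM at E14.5, at 212, 198, 247 and 259 CPM at E16.0 and at 252, 288, 311 and 291 CPM at E17.5. All libraries of the later stages lay below all of E12.5. The change from E12.5 to E17.5 was -0.76 (SE 0.19, adjusted p = 0.0011). In Eomes-detected cells it went from 373, 372, 376 and 440 CPM to 215, 268, 262 and 283 CPM (log2 change -0.73, SE 0.18, adjusted p = 0.00102). In the cells with Eomes as the only marker of the 3 the value was -0.20 and not called. In Sox2-detected cells it went from 260, 264, 247 and 284 CPM to 213, 253, 238 and 269 CPM, with overlap, and the change of -0.28 was not called.

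Other members changed in some of the classes. Ndufa8 rose by 0.26 on the log2 scale in Sox2-detected cells, from 159, 160, 159 and 159 CPM to 209, 204, 223 and 223 CPM. Ndufs4, an accessory subunit known from Leigh syndrome, rose by 0.19 in the same cells, from 223, 206, 206 and 213 CPM to 278, 260, 276 and 271 CPM, with no overlap. This call (adjusted p = 0.0289) was lost without WT M2, F1 or F2 of E12.5, or M1, F1 or F2 of E17.5. With depth as a term neither rise held, at -0.01 for Ndufa8 and -0.03 for Ndufs4. Cox7a1 rose by 0.68 there. Cox6b2 had a change of -0.20, not called, in Sox2-detected cells, and fell by 1.15 in Eomes-detected and by 2.01 in Neurod6-detected cells. In the last it went from 10.9, 10.5, 11.9 and 11.3 CPM to 2.06, 2.98, 2.11 and 4.81 CPM.

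Ndufa4l2 rose in the tissue and fell in 2 of the 3 classes. In Sox2-detected cells it went from 3.55, 5.14, 2.64 and 4.85 CPM to 0.633, 3.70, 4.16 and 3.48 CPM, with overlap, and the change of -0.61 was not called. It fell by 2.04 (SE 0.52, adjusted p = 0.0018) in Eomes-detected cells, from 9.33, 8.17, 8.31 and 10.8 CPM to 1.57, 3.0, 1.13 and 3.74 CPM. In Neurod6-detected cells it fell by 1.23 (SE 0.44, adjusted p = 0.0178), from 10.4, 12.5, 8.99 and 10.8 CPM to 2.29, 7.30, 5.36 and 4.19 CPM. In these 2 classes the stages did not overlap, while the tissue value rose as given above. The pericyte list in these 2 classes had means of 9.08 and 9.77 CPM in Eomes-detected and 14.4 and 24.5 CPM in Neurod6-detected cells at the first and last stage.

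**Figure D3:**
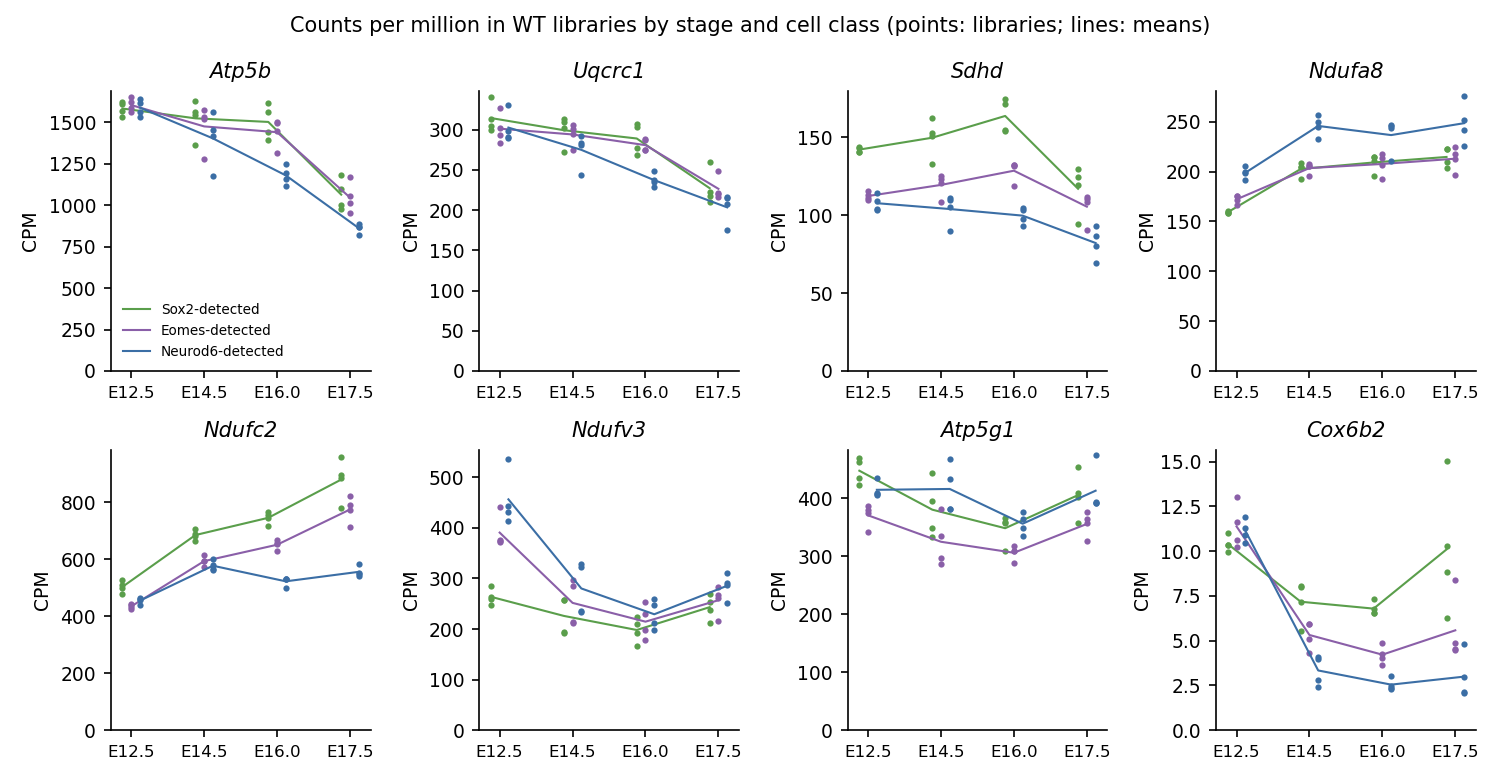
CPM of 8 members in the 16 WT libraries by stage (horizontal axis), in Sox2-detected (green), Eomes-detected (purple) and Neurod6-detected cells (blue), with points for libraries and lines for means. Ndufc2 rises in Sox2- and Eomes-detected cells from about 425 to 527 CPM at E12.5 to 713 to 958 CPM at E17.5, and Atp5b falls in all 3 classes.

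Across the classes of the same WT libraries, averaged over the 4 stages, members moved both ways. Between Neurod6- and Sox2-detected cells, 25 of 78 members were higher in the Neurod6-detected cells (32.1%) and 38 lower (48.7%), against 42.2% higher and 43.9% lower among all 14253 genes tested. The median log2 difference was -0.03 over the members and -0.01 over all genes. DESeq2 gave 32 higher and 32 lower, beside 6155 and 5946 of all genes. Between Eomes- and Sox2-detected cells, 28 were higher (35.9%) and 31 lower (39.7%), against 32% and 38.4% of all genes, with medians of -0.01 and -0.02. DESeq2 gave 34 higher and 23 lower there, beside 4815 and 4974 of all genes. Leaving mitochondrial and ribosomal protein genes out gave 32 and 23, beside 4865 and 5091 of 14160 genes, and thinned cells gave 24 and 22, beside 2942 and 3410 of 11115. In cells with 1 marker only, 9 were higher and 37 lower, with a median of -0.08 beside -0.16 over all genes, of which 1541 of 13433 were higher and 4110 lower. The members higher in both contrasts numbered 18, those lower in both 24, and 6 were called opposite ways, among them Atp5f1, Atp5k, Ndufs1 and Uqcrfs1. Over all 14253 genes these counts were 3744, 4580 and 874. Both contrasts share the Sox2-detected sums.

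The 4 genes of complex II were all lower in Neurod6- than in Sox2-detected cells, and 3 were lower in Eomes-detected cells. Over the 16 libraries Sdhd ranged from 94.5 to 175 CPM (median 143) in Sox2-detected, from 90.6 to 132 (median 114) in Eomes-detected and from 69.1 to 114 (median 103) in Neurod6-detected cells. In all 16 libraries the Eomes- and the Neurod6-detected sum lay below the Sox2-detected one. The log2 differences were -0.28 for Eomes- and -0.53 (SE 0.02) for Neurod6-detected cells. Sdha was lower by 0.42 on the log2 scale in Neurod6-detected cells, in 16 of 16 libraries.

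The ATP synthase leaned the same way, with 11 of 17 genes lower and 4 higher in Neurod6-detected cells and 10 lower and 3 higher in Eomes-detected cells. Atp5g2 ranged from 339 to 727 CPM (median 511) in Sox2-detected and from 226 to 520 CPM (median 405) in Neurod6-detected cells, lower in 16 of 16 libraries, with a log2 difference of -0.44. Atp5g1, its sister gene, had its lowest values in Eomes-detected cells, below the Sox2-detected sum in 16 of 16 libraries (log2 difference -0.21), and lay above it in 9 of 16 libraries in Neurod6-detected cells. Against this trend, Atp5md, a small subunit of the membrane part, was higher in Neurod6-detected cells in 16 of 16 libraries, with a median of 716 CPM against 586 CPM (log2 difference 0.31).

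In complex I, 13 of 36 genes were higher and 15 lower in Neurod6-detected cells, and 16 higher and 11 lower in Eomes-detected cells. Ndufv3 had medians of 242, 265 and 290 CPM in Sox2-, Eomes- and Neurod6-detected cells. The Eomes- and the Neurod6-detected sums lay above the Sox2-detected one in 16 of 16 libraries (log2 differences 0.23 and 0.39). Ndufb2, an accessory subunit of the membrane arm, had medians of 206, 222 and 249 CPM and a log2 difference of 0.33 in Neurod6-detected cells. Ndufa6, which sits beside the peripheral arm, was highest in Eomes-detected cells, with a median of 294 CPM against 249 CPM in Sox2-detected cells (log2 difference 0.19). Ndufc2 had medians of 710, 621 and 536 CPM and lay below the Sox2-detected sum in 16 of 16 libraries in both other classes.

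Complex III had 5 of 8 genes lower and 2 higher in Neurod6-detected cells, and 4 lower and 2 higher in Eomes-detected cells. Uqcrh was higher in Eomes-detected cells in 16 of 16 libraries, with a median of 810 CPM against 718 CPM (log2 difference 0.15). Uqcr10, a small subunit, was lower there in 16 of 16 libraries, with a median of 417 CPM against 488 CPM (log2 difference -0.20). Complex IV had 5 of 11 genes higher and 3 lower in Neurod6-detected cells. Cox6a1 was higher in 16 of 16 libraries, with a median of 622 CPM against 532 CPM (log2 difference 0.22). Of the rare isoforms, Cox6b2 was lower in Neurod6-detected cells by 1.05 and Ndufa4l2 higher by 0.92 on the log2 scale.

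**Figure D4:**
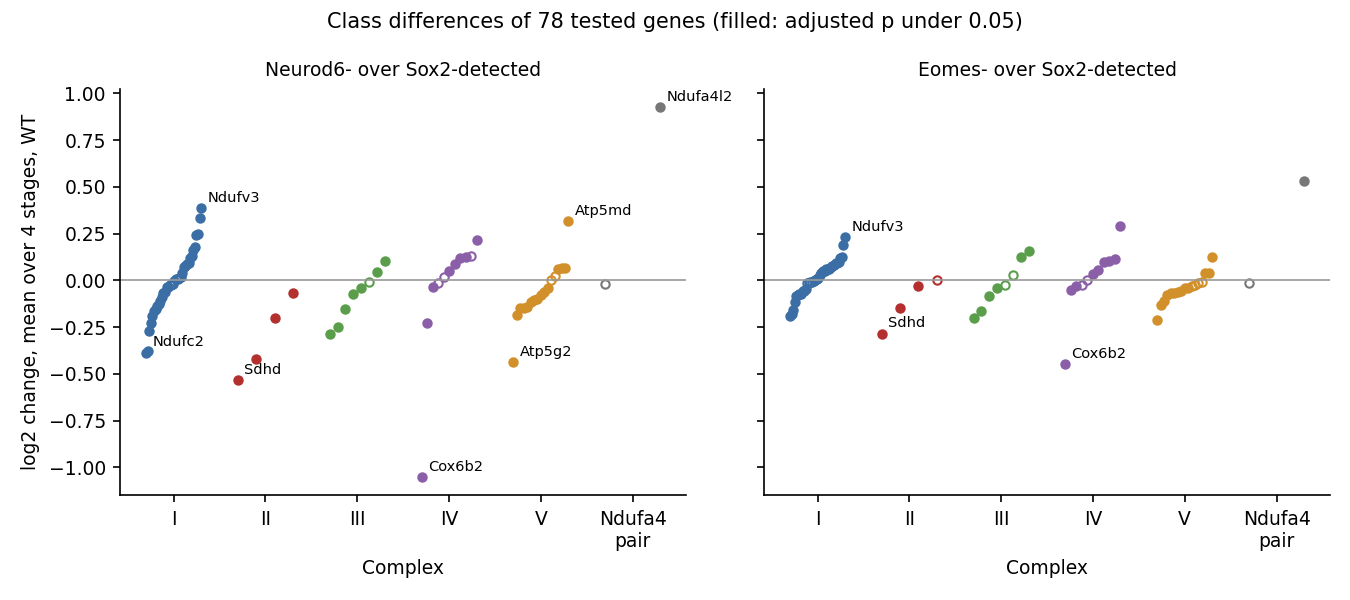
Log2 difference of each tested member from Sox2-detected cells, averaged over 4 stages in WT libraries, for Neurod6-detected (left) and Eomes-detected cells (right), by complex on the horizontal axis. Filled points passed the test, and all 4 complex II genes lie below 0 in the left panel.

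The class by stage test asked whether the change from E12.5 to E17.5 differed between Neurod6- and Sox2-detected cells. It called 27 of 78 members, 13 with a more positive change in Neurod6-detected cells (16.7%) and 14 with a more negative one (17.9%), against 28.0% and 24% of all genes. The balance of the calls depended on the settings. With library totals, 1 member was more positive and 51 more negative, beside 2319 and 4748 of all 14253 genes, with a median of -0.11 over the members and -0.10 over all genes. DESeq2 gave 7 and 27, beside 2953 and 3726 of all genes. Leaving out mitochondrial and ribosomal protein genes gave 7 and 23, beside 3255 and 3876 of 14160. Cells with 1 marker only gave 6 and 12, beside 3518 and 2705 of 13433, where more genes were more positive than more negative. Cells thinned to 2000 UMIs gave 1 and 23, beside 1485 and 2210 of 11115, with a median of -0.09 over the members and -0.02 over all genes. The 14 more negative calls and 1 of the more positive ones, Atp5g1, were shared by both scalings.

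Ndufc2 and Ndufv3 stood at the negative end, at -0.37 (SE 0.04) and -0.41 (SE 0.05) on the log2 scale. Ndufc2 rose less in Neurod6- than in Sox2-detected cells, and Ndufv3 went further down. Atp5g2 had a difference of -0.29 (SE 0.04). In Sox2-detected cells it went from 483, 490, 491 and 401 CPM to 431, 655, 545 and 727 CPM, and in Neurod6-detected cells from 411, 446, 423 and 348 CPM to 265, 460, 332 and 469 CPM, with overlap between stages in both. At the positive end, Atp5g1 had a difference of 0.29 (SE 0.06), Ndufb2 of 0.22 (SE 0.05) and Uqcrc2 of 0.20 (SE 0.05). Atp5g1 went from 423, 469, 435 and 462 CPM to 357, 401, 408 and 454 CPM in Sox2-detected cells and from 409, 435, 407 and 406 CPM to 393, 392, 474 and 392 CPM in Neurod6-detected cells. The values of Ndufb2 and Uqcrc2 were not called under library totals, and that of Ndufb2 was -0.09 in thinned cells. Cox6b2, a rare member, had the difference farthest from 0, at -1.73 (SE 0.16).

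Loss of 1 copy of Chd8 gave no member that passed the test when averaged over the 4 stages. In edgeR's quasi-likelihood test 0 of 78 members were called in all retained cells, beside 0.309% of all genes. At an unadjusted p under 0.05 there were 3 (3.85%), beside 6.64% of all genes. In Sox2-, Eomes- and Neurod6-detected cells 0 were called as well, beside 0.529%, 0.305% and 0.227% of all genes. There 3, 2 and 3 members had an unadjusted p under 0.05, beside 8.68%, 8.88% and 5.84% of all genes. DESeq2 called 0, 1, 1 and 0 members in these 4 sets of cells. Of all genes it called 78 higher and 38 lower of 15880, 65 and 66 of 13797, 42 and 37 of 13102, and 49 and 18 of 14559. The median log2 differences between het and WT were 0.03, 0.04, 0.06 and 0.04. Their sign turned without the E12.5 libraries, at -0.05, -0.03, -0.02 and -0.05, and with depth as a term, at -0.03 in each set. The member with the smallest adjusted p was Ndufb10, an accessory subunit of the membrane arm of complex I, at 0.15 (SE 0.04, adjusted p = 0.0913) in Sox2-detected cells. In Sox2- and in Eomes-detected cells it was called higher by DESeq2, under library totals, with the pair as a block and without het M2 of E12.5, and in Neurod6-detected cells in the last of these.

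At E12.5, the members took a larger share of the UMIs in 3 of the 4 het libraries than in their WT pairs. The 82 members summed to 32642, 33883, 32551 and 33944 CPM in WT libraries (M1, M2, F1, F2) and to 38282, 31299, 41369 and 38658 CPM in het libraries. The het library was higher by 5640 (M1), 8818 (F1) and 4714 CPM (F2), and in the M2 pair the difference was -2584 CPM. The median log2 difference over the 78 members was 0.26, beside -0.03 over all genes, with 69 members above 0. Of the 78, 36 had an unadjusted p under 0.05 (46.2%), beside 15.6% of all genes. After adjustment 1 was called, Ndufb10, beside 0.258% of all genes. It stood at 236, 227, 234 and 232 CPM in WT and at 281, 251, 312 and 295 CPM in het libraries, with no overlap (log2 difference 0.38, SE 0.08, adjusted p = 0.0375). With the pair as a block, 29 members were called higher and 1 lower, beside 1164 higher and 1037 lower of all 15881 genes. DESeq2 called 12 higher and 0 lower, beside 527 and 151 of 15880 genes. Without het M2 of E12.5, 28 members were higher and 1 lower. The calls over all genes in that fit are not given here, so these counts cannot be set against them. The call of Ndufb10 was lost without any 1 of the WT libraries of E12.5, without het M1, F1 or F2 of E12.5, and without any 1 of 6 libraries of later stages (WT M2 and het M2 of E14.5, WT M1, WT M2 and het F2 of E16.0, and WT F2 of E17.5).

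The same 3 het libraries were the shallow ones. Median UMIs per retained cell were 8580.5, 9923.5, 10479.5 and 9974 in the WT libraries of E12.5 and 5955, 10531, 4088 and 5932 in the het ones. Het M2 was as deep as WT and was the only het library without a higher sum. The libraries of E16.0 and E17.5 had medians of 3916.5 to 5800 UMIs and sums of 26722.3 to 34500.5 CPM. With depth as a term of the fit, 0 members and 0 of all 15881 genes were called at E12.5. The median log2 difference was 0.00 over the members and 0.01 over all genes. Genotype and depth go together in 3 of the 4 pairs of this stage and cannot be told apart. The difference also went with coding length, with a Spearman's rho of -0.51 over members and -0.35 over all genes.

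**Figure D5:**
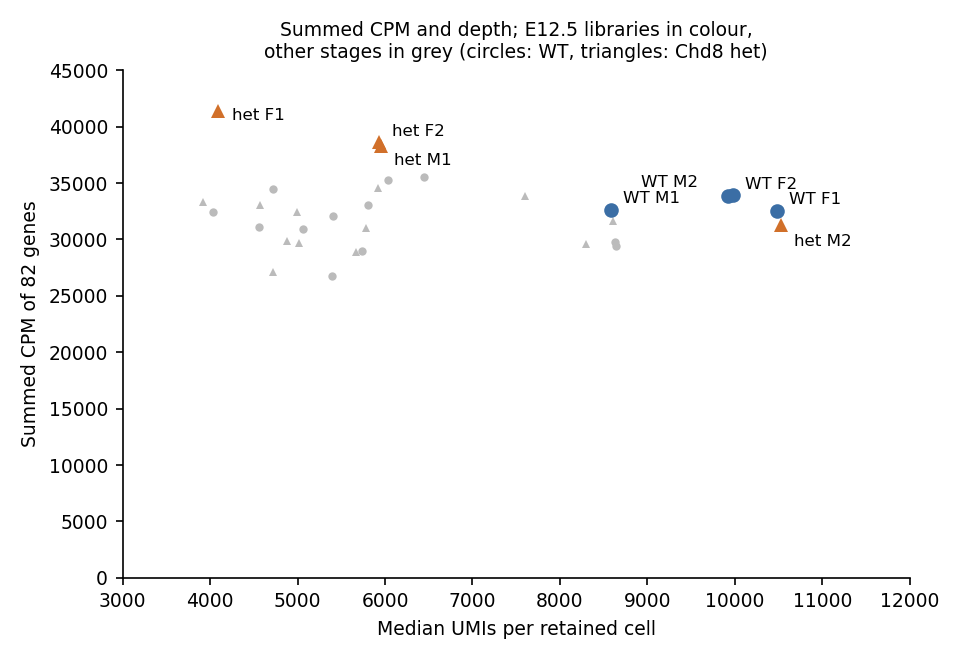
Summed CPM of the 82 members (vertical axis) against the median UMIs per retained cell (horizontal axis) in each library, with E12.5 WT in blue circles, E12.5 het in orange triangles and the other stages in grey. The het libraries M1, F1 and F2, at 4088 to 5955 UMIs, have the highest sums, and het M2, at 10531 UMIs, has the lowest of E12.5. The grey libraries of E16.0 and E17.5, at 3916.5 to 5800 UMIs, lie at 26722.3 to 34500.5 CPM.

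At E14.5, E16.0 and E17.5, 0 members were called by edgeR and by DESeq2, beside 0% of all genes by edgeR. An unadjusted p under 0.05 was found for 1, 0 and 3 members, beside 1.71%, 1.55% and 4.12% of all genes. The median log2 differences were -0.01, 0.01 and -0.10, beside -0.01, 0.00 and 0.01 over all genes. At E17.5, 75 of 78 members lay below 0. The het libraries M1 and F1 of this stage belong to the 3 that stood apart, and without these 3 the median was -0.03, beside -0.01 over all genes. The 3 members at an unadjusted p under 0.05 at E17.5 were Atp5b at -0.20, Ndufv1 at -0.17 and Ndufc2 at -0.17.

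The rest of the respiratory chain and its neighbours were read from lists chosen with earlier results of these data known. From E12.5 to E17.5 in WT tissue, the genes of the mitochondrial genome moved the other way. Of 11 tested, 9 rose and 0 fell, with a median log2 change of 0.63, beside 34.6% and 33.0% of all genes. Among those that rose were mt-Co3 at 1.98 and mt-Nd3 at 1.81, while mt-Co1 at 0.26 and mt-Nd1 at -0.23 were not called. The rises of mt-Co3 and mt-Nd3 were of a low and of a widely spread gene. The level of mt-Co3 went from 3.18 ± 0.649 to 14.6 ± 5.73 CPM and that of mt-Nd3 from 70.3 ± 10.1 to 286 ± 155 CPM (mean ± SD). The abundant mt-Nd1 stood at 3914 ± 462 and 3865 ± 296 CPM. Other low genes were mt-Co2 and mt-Atp6, with WT means of 3.76 and 5.89 CPM at E12.5, against 2671 CPM for mt-Cytb. Near-identical copies were sought only for the members, so counts of the mitochondrial genes may also miss or hold reads of copies. The sum of the mitochondrial genes in all retained cells had means of 9172, 10577, 12217 and 12953 CPM over the 4 stages. In Neurod6-detected cells 9 rose and 0 fell (median 0.67), and in Sox2-detected cells 4 rose and 1 fell (median 0.26). Of all genes, 31.8% rose in each of these classes, and 28.0% and 27.4% fell. All 11 were higher in Neurod6- than in Sox2-detected cells, with a median of 0.53, beside 42.2% of all genes.

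Of 40 assembly factors, which build the complexes, 20 fell and 6 rose with stage, with a median of -0.36. Beside this count and the stage counts that follow, 33.0% of all genes fell and 34.6% rose. Of 13 regulators of mitochondrial gene expression, 7 fell and 2 rose. Tfam, which packs and transcribes mitochondrial DNA, fell by 1.09, Nrf1 by 0.64, Gabpa by 0.43 and Yy1 by 0.28 on the log2 scale of the fit. In CPM, which uses library totals, the differences of Gabpa and Yy1 were smaller, from 17.3 ± 1.87 to 14.9 ± 3.22 and from 59.5 ± 2.50 to 56.8 ± 9.18 (mean ± SD, n = 4), within the spread of E17.5, while Tfam went from 84.0 ± 0.916 to 45.8 ± 3.85. The smaller changes in these lists carry the same limit. Ppargc1a, a coactivator of mitochondrial genes, had a change of 0.35, not called. Of 15 citric acid cycle genes 11 fell and 0 rose. Of 19 glycolysis genes 13 fell and 4 rose, with a median of -1.13. Ldha, which makes lactate, fell by 2.26, and Eno2, the neuronal enolase, rose by 2.05. Of 9 tested genes of the hypoxia response 4 rose and 2 fell, with a median of 0.50. Of the 6 subunit genes that the name rule left out, Ndufab1 fell by 0.71, the cytochrome gene Cyc1 by 0.54 and Cox4i1 by 0.36, and Cox7a2l rose by 0.66. Averaged over stages, genotype gave 0 calls in each of these lists in each set of cells by edgeR. At E12.5 1 assembly factor was called, beside 0.258% of all genes.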

How the data were processed

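Dorsal telencephalon of single embryos was profiled with the 10x Genomics 3′ v2 droplet assay, per the labels' protocols. The authors deposited UMI counts per gene and barcode for each of the 32 libraries, as whole numbers and not normalized. The submitters' processing notes name STAR 2.7.9a, STARsolo, Cell Ranger and build mm10. Whether counting used strand is not given in the sources used here.

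Each library had 2509 to 7473 barcodes (145082 in all) and 14710694 to 66499864 UMIs. A minimum of 1000 UMIs and 500 genes and a maximum of 10% mitochondrial UMIs left 143697 barcodes. Doublets were sought by neighbours of simulated doublets, and 5471 cells were taken out, a number that follows from an assumed 0.8% for every 1000 cells. Of the barcodes of the smaller library, at most 1.21% were shared with another library. Free RNA was not modelled.

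Counts were summed per library over all retained cells and over the Sox2-, Eomes- and Neurod6-detected cells. CPM was computed from these sums. Each set of sums was fitted over all 32 libraries with edgeR 4.0.16 (quasi-likelihood test, TMM factors, its own filter on low counts), with Benjamini-Hochberg adjustment over all genes tested and a threshold of 0.05. Classes were compared over 16 WT libraries with the library as a term. Only the stage fit in all retained cells was tried on simulated counts. DESeq2 1.42.0, library totals, no filter, cells thinned to 2000 UMIs, cells with 1 marker only, doublets kept, mitochondrial and ribosomal protein genes left out, a replicate block and leaving out each library were the alternatives. Leaving out 3 libraries of E17.5, leaving out E12.5, and depth as a term were added after the data were seen.

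The pairs come from the series' design text (same litter and sex). Pair members deviated together from their group means with a correlation over 0.1 in 12 of 16 pairs (lowest -0.114, highest 0.905, over 5000 genes). The tests without the pair are the main ones, and the blocked value stands beside the genotype results that it changes.

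Positions and coding lengths came from GENCODE M21, whose identifiers matched 99.8% of the listed genes. A near-identical copy was at least 97% identity over at least 90 of the last 400 bases (blastn 2.17.0). Members and gene lists were chosen with earlier results of these data known. Members named with values were the isoform sets, the most abundant of each complex, and in each stage or class contrast the 3 called members with the largest change in each direction at a mean log2 CPM of at least 3. Named under genotype was every called member. Other members were named after their values were seen.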

Additional observations from a re-analysis of the deposited data

Results flagged for a closer look

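In 2 of 48 groups of 4 libraries, 1 library stood far from the other 3 in the sum of a complex, and chance flags about 1 group in 20. The complex II sum of het F1 at E14.5 was 650.9 CPM against 760.1 to 779.2 CPM in the other het libraries of that stage. The ATP synthase sum of het M2 at E12.5 was 10842.5 CPM against 12251.5 to 12486.9 CPM in the others. This is the het library of E12.5 with the highest median UMIs per cell, and the part of depth in this value was not tested.

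The change from E12.5 to E17.5 differed between Neurod6- and Sox2-detected WT cells, by the test of the difference itself, for 6 of the members named by rule. The difference was 0.29 for Atp5g1, 0.22 for Ndufb2 and 0.20 for Uqcrc2 on the log2 scale, and -0.41 for Ndufv3, -0.37 for Ndufc2 and -0.29 for Atp5g2. The Ndufb2 difference turned to -0.087 in cells thinned to 2000 UMIs, and its call was lost without WT M2 of E12.5, and for Uqcrc2 without WT M2 or F2 of E12.5. Neither Ndufb2 nor Uqcrc2 was called under library totals.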

How the results depend on the processing

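Counts of called members moved by less than 1.5 times in every result tried with doublets kept (15), thinned cells (9) and the replicate name as a block (4), genotype results with 0 calls included, although in thinned cells the class by stage split went from 13 more positive and 14 more negative to 1 and 23. The count for E12.5 genotype moved from 1 to 12 with DESeq2, to 30 with the matched pair as a block, to 6 without 3 libraries of E17.5, and to 0 with no filter, with depth as a term and without mitochondrial and ribosomal protein genes, and ran from 0 to 29 when each library was left out. The calls over all genes moved too, from 31 higher and 10 lower in the main fit. They were 527 and 151, 1164 and 1037, 293 and 193, 4 and 4, 0 and 0, and 23 and 12 in the order of these settings. Genotype averaged over stages gave 1 call instead of 0 in Sox2- and in Eomes-detected cells under DESeq2, library totals and the block, and 0 to 1 when each library was left out, as in Neurod6-detected cells. Over all genes, these 3 settings called 65 higher and 66 lower, 32 and 26, and 104 and 138 in Sox2-detected cells. In Eomes-detected cells they called 42 and 37, 26 and 14, and 76 and 84. With depth as a term the stage counts became 59 in Sox2-detected, 60 in Eomes-detected and 55 in Neurod6-detected cells, mostly lower. The Eomes-detected stage count was 12 in cells with 1 marker only. The class by stage count was 52 under library totals. Leaving out each library gave 36 to 44 calls for stage in all retained cells, 26 to 34 in Sox2-detected, 20 to 29 in Eomes-detected and 28 to 33 in Neurod6-detected cells, 60 to 66 and 52 to 59 for the Neurod6 and Eomes class contrasts, and 25 to 32 for class by stage. The class by stage split was less stable, with 3 to 14 more positive and 13 to 28 more negative calls. For fits with a library left out, the calls over all genes are not given here. The ranges of member counts from those fits cannot be set against them. The block changed no other call count by over 1.5 times. Of 1242 values of named members, 1184 kept direction and side of the threshold, 54 lost the call and 4 reversed: with depth as a term, Ndufa8 (-0.014) and Ndufs4 (-0.027) in Sox2-detected and Ndufc2 (-0.016) in Neurod6-detected stage changes, and in thinned cells Ndufb2 in class by stage (-0.087). The cause was not tested. Members at a few CPM, such as Cox7a1 and Ndufa4l2, are limited by depth.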

Other observations

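At E14.5 and E16.0 the summed CPM of the 82 members separated the sexes in both genotypes. At E14.5 the males M1 and M2 stood at 29449 and 29800 CPM in WT and 29606 and 31651 CPM in het tissue, and the females F1 and F2 at 35502 and 35267 CPM in WT and 33869 and 34588 CPM in het tissue. At E16.0 the males stood at 28984 and 26722 CPM (WT) and 27072 and 28845 CPM (het), and the females at 30919 and 33088 CPM (WT) and 32415 and 31028 CPM (het). Every male library lay below every female one within each of these stages. At E12.5 and E17.5 the sexes overlapped when both genotypes were pooled, although both females lay above both males in het tissue at E12.5 and in WT tissue at E17.5. Depth moved with sex at E14.5, where the median UMIs per cell were 8296 to 8638 in males and 5924 to 7601 in females, and its part in the sums was not tested. At E16.0 the depths overlapped, at 4716 to 5737.5 in males and 4994 to 5800 in females. Sex and any other difference between these libraries, such as litter, cannot be told apart, and no test was made. Single genes differed in this. Cox6c in WT tissue of E14.5 stood at 647 and 678 CPM in males and 1046 and 948 CPM in females, and Cox5a at 885 and 875 CPM against 766 and 886 CPM, with overlap.

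The genes of the mitochondrial genome changed more in one class than in another. Of 11 tested, 9 had a more positive change from E12.5 to E17.5 in Neurod6- than in Sox2-detected cells and 0 a more negative one, with a median difference of 0.39 on the log2 scale. Their summed level had means of 8718 CPM at E12.5 and 9398 CPM at E17.5 in Sox2-detected cells and of 10332 and 13486 CPM in Neurod6-detected cells. Copies of these genes elsewhere were not sought. Of 19 glycolysis genes, 14 were lower and 5 higher in Neurod6- than in Sox2-detected cells, beside 43.9% and 42.2% of all genes. Ldha was lower by 1.08 and Eno1 by 0.95 on the log2 scale, and Eno2 was higher by 2.06. The glycolysis sum in all retained WT cells had means of 7880, 5896, 4842 and 3742 CPM over the 4 stages.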
